A study of Mus musculus with 4 samples.

Results

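The mitochondrial ribosomal proteins were followed through a doxycycline and cell-sorting experiment in mouse mammary epithelial cells. A gene was a member when its symbol in the array annotation began with Mrpl or Mrps and a digit, which gave 76 of 18194 genes with a named probe set (a group of array probes that reports on one transcript). Where a gene had several, the brightest on average was used. Another 4 probe sets list such a symbol together with another gene, and 2 symbols seen only there were not analysed here.

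Mitochondria carry their own ribosome, the mitoribosome, which translates the few proteins encoded in mitochondrial DNA, all of them parts of the respiratory chain or ATP synthase. Its proteins are made from nuclear genes and imported. Some have bacterial counterparts and others occur only in mitochondria. Doxycycline is a tetracycline; tetracyclines bind the RNA of the small subunit of bacterial ribosomes and can also slow translation in mitochondria. The same drug is widely used as a switch for engineered genes.

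The cells were of the line Comma D beta, established from mouse mammary epithelium. All were grown overnight in medium with 2% serum, to which insulin (5 ug/ml) and epidermal growth factor (10 ng/ml) were added. Cells left untreated and cells given doxycycline (dox) at 100 ng/ml for 1 day were sorted into Sca1+ and Sca1- fractions by staining for this surface protein. Each of the 4 combinations of treatment and fraction was read on 1 array. The series title names Bcl11b, but the labels do not say which gene, if any, dox switches on. An effect of the drug and an effect of a gene it may induce cannot be told apart, since the labels name no array that separates them. With 1 array per group no difference has a replicate check, and no p-value is drawn from single differences.

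Levels are the authors' log2 values, on a table whose lowest value, 3.32, is the log2 of 10. No member lay at this floor on any array, and 72 of 76 had a linear level of 100 or more on every array. Of the 18194 genes, 12264 reached 3.63, the median over all values of the table, on at least 1 array and were analysed, the 76 members among them. Of 9 mammary epithelial markers 8 reached 100 on at least 1 array, and Krt19 lay at the floor on all 4; their summed linear level was 14674 and 15335 without dox and 10189 and 11895 with dox (Sca1+ and Sca1-). Of the 8 that were analysed, 5 lay below 0 with dox in both fractions and 2 above, from the keratin gene Krt5 at -4.0 and -3.13 (log2, dox minus untreated) to Krt14 at 0.10 and 0.38 and Cdh1 at 0.34 and 0.15. Of the named markers of T cells, leukocytes, endothelium and adipocytes none reached 100 on any array, and 1 of 8 fibroblast markers did. The fibroblast list summed to linear levels of 88.9 and 105 on the untreated Sca1+ and Sca1- arrays and 767 and 434 on the dox arrays. Dcn accounted for most of this, at the floor without dox and 9.41 and 8.42 with it, while Col1a1, Col3a1 and Pdgfrb lay at the floor on all arrays. The leukocyte list summed to 77.0 and 84.1 without dox and 152 and 144 with it, where Cd68 differed by 2.79 and 2.40; the T-cell, endothelial and adipocyte lists stayed between 40.0 and 114. The probe sets for the gene of Sca1 itself carry no name here, so the sort was not checked on its own marker. Control probe sets at the 3' and 5' ends give a check on RNA integrity, where a larger 3' excess goes with less intact RNA. For actin the 3' probe set exceeded the 5' one by 0.69 and 0.81 on the untreated Sca1+ and Sca1- arrays. On the dox arrays it did so by 0.83 and 0.91. For Gapdh the same difference was -0.10 and -0.055 without dox and -0.013 and 0.11 with it. The part of these shifts in the differences of the members was not tested.

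Promoter sequences show what the members share at the start of their genes. RefSeq promoter windows (GRCm38.p6, 250 bases before to 50 after the start) were held for 67 of the 76 members, in 73 windows. Each motif was searched as exact letters on both strands. The ETS motif CCGGAAG, the core bound by factors such as GABP, occurred in 34.2% of member windows, in 16.7% of the windows of all analysed genes and in 8.86% of all windows of the table. The YY1 motif AAGATGG occurred in 17.8% of member windows, against 6.81% and 6.34%. The NRF1 core GCATGCGC occurred in 8 of 73 member windows, against 4.94% and 2.71%, and a longer palindromic NRF1 form that contains this core in 4.11%, against 1.94% and 0.971%. NRF1, GABP and YY1 are known regulators of nuclear genes for mitochondria. Other motifs did not set the members above the analysed genes in this way. GGGCGG was in 53.4% of member windows, 61.6% of those of analysed genes and 35.7% of all windows of the table. The same shares were 39.7%, 37.5% and 37.4% for CCAAT, 9.59%, 9.81% and 7.15% for CACGTG, and 6.85%, 7.66% and 13.6% for TATAAA. Against all windows, GGGCGG was therefore also more frequent in members. The median GC content of the windows was 58.7% for members and 60.7% for analysed genes. The members with both dox arrays above both untreated arrays had the ETS motif in 10 of 26 windows, those with both dox arrays below in 6 of 19, and the rest in 9 of 28. The YY1 motif was in 4 of 26, 4 of 19 and 5 of 28 windows of these sets and the NRF1 core in 4 of 26, 1 of 19 and 3 of 28, so each motif was found on each side. These sides rest on the authors' scaling of the arrays and were not recounted with another. A match is a description of letters and not a measured binding site.

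The 250 bases before the start are shown as examples of the matches for 3 members that were higher with dox, and for Mrps2, which was lower and holds none of the ETS, YY1 and NRF1 letters in its window. They do not stand for a split by direction, since members with lower values such as Mrps23 (ETS) and Mrpl33 (ETS and the NRF1 core) hold matches too. Capitals mark matches to these motifs.
Mrpl36 (chr13:73330759-73331008, plus strand, a YY1 match read from the opposite strand): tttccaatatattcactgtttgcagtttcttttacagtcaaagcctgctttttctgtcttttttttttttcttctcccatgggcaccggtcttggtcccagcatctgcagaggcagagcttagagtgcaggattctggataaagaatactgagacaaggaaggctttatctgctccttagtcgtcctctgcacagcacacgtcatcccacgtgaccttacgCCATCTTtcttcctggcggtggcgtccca
Mrpl17 (chr7:105811088-105811337, minus strand, an ETS match and an NRF1 core): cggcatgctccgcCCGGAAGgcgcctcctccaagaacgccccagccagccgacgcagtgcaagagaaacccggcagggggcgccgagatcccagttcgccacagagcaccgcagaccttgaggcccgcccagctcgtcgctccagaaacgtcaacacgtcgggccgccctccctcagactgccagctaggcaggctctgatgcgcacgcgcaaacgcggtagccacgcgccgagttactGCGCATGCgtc
Mrps18b (chr17:35916441-35916690, minus strand, an NRF1 core): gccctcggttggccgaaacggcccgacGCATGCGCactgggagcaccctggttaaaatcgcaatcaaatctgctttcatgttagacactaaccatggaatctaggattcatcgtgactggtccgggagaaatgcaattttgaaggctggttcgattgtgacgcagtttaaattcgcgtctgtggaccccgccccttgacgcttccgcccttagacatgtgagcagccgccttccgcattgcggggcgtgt
Mrps2 (chr2:28467816-28468065, plus strand): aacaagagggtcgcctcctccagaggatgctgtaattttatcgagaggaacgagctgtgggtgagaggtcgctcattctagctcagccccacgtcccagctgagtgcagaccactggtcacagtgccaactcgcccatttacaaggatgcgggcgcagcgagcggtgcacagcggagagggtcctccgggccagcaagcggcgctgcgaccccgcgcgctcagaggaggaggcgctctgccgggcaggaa
The YY1 match of Mrpl36 begins 29 bases before the start. The NRF1 core of Mrpl17 is read from the opposite strand and begins 11 bases before the start. The ETS match of Mrpl17 begins 237 bases before the start, and the NRF1 core of Mrps18b 223 bases before it. An ETS match of Mrps18b is not within the bases shown.

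As a group the members stayed close to their untreated levels when dox was given. The median dox difference (log2, dox minus untreated) was 0.01 in Sca1+ cells and -0.0035 in Sca1- cells, and over all analysed genes it was 0.03 and 0.02. The middle 50% of members lay between -0.21 and 0.21 in Sca1+ cells and between -0.22 and 0.16 in Sca1- cells, a width of 0.42 and 0.38, compared with 0.91 and 0.82 over all analysed genes. Restricting the comparison to the 7514 genes that reached 100 on some array gave widths of 0.90 and 0.78. That set also holds genes that lay at the floor on other arrays, so it favours wide differences and is not matched in level to the members. The narrow spread was not particular to them: the widths were 0.08 and 0.11 for cytosolic ribosomal proteins, 0.39 and 0.24 for respiratory-chain subunits and 0.18 and 0.26 for mitochondrial translation factors. Only Mrpl38 was at least 2-fold different with dox, and only in Sca1+ cells. That is 1 of 76 members at least 2-fold lower in Sca1+ cells, where 12.9% of all analysed genes were, and 0 of 76 in Sca1- cells, where 11.3% were. None was at least 2-fold higher, against 8.47% of all genes in Sca1+ and 7.20% in Sca1- cells. In both fractions together 0 members were 2-fold higher or lower, against 5.29% and 8.56%.

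**Figure D1:**
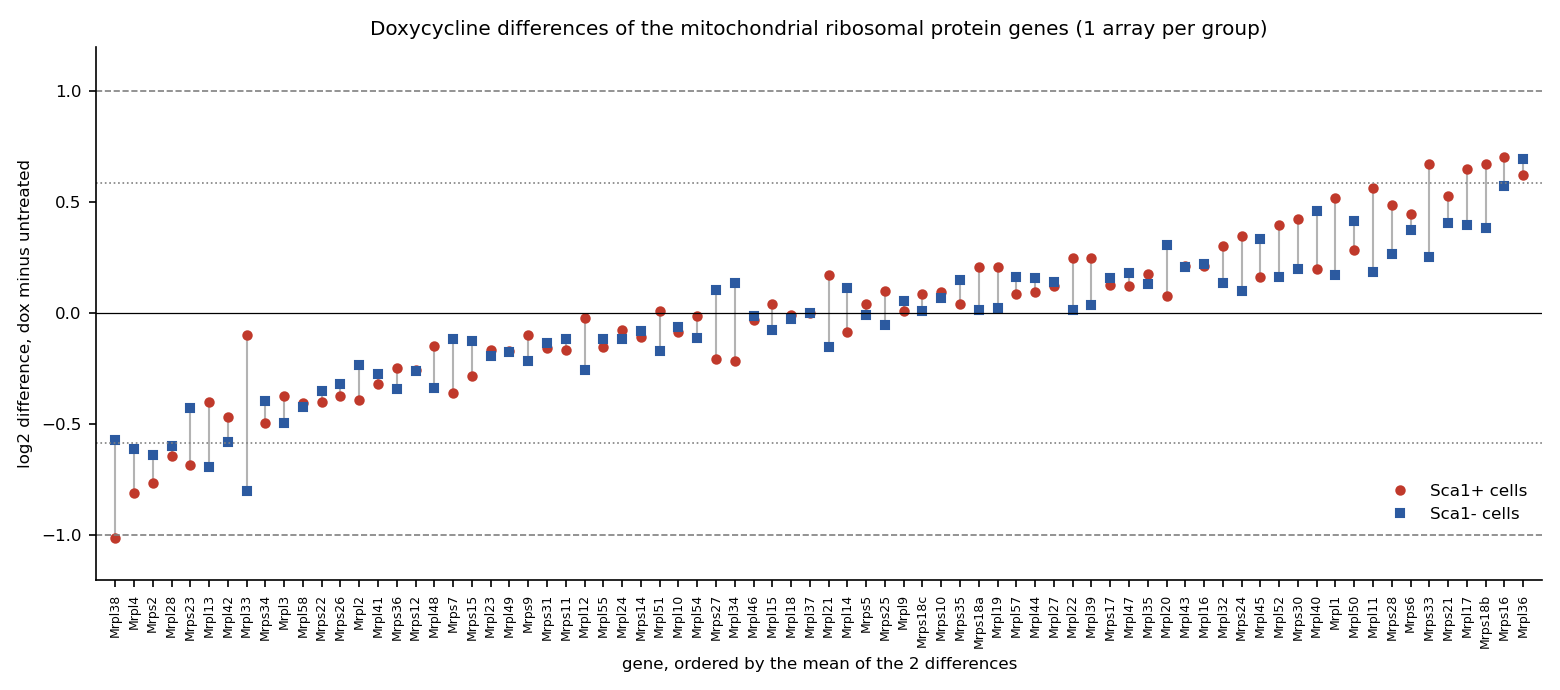
Log2 dox minus untreated difference of each of the 76 genes in Sca1+ (circles) and Sca1- cells (squares), ordered by the mean of both; dashed lines mark 2-fold and dotted lines 1.5-fold. The points run from -1.01 for Mrpl38 to 0.70 for Mrps16, and the median lies next to 0 in each fraction.

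A smaller rule of 1.5-fold (0.58 on the log2 scale) separated the edges of the family. In Sca1+ cells 5 members passed it upwards and 5 downwards, or 6.58% each, against 19.2% and 20.8% of all analysed genes. The split in Sca1+ cells depended on the scaling: with arrays centred on their median over all probe sets, 0 members were higher and 10 lower, against 13.1% and 27.0% of all genes. In Sca1- cells 1 was higher and 5 were lower, against 16.8% and 19.4%. In the same direction in both fractions, Mrpl4, Mrps2 and Mrpl28 were lower and Mrpl36 was higher; this holds for 15.0% and 11.8% of all analysed genes, and with that centring 0 members were higher in both. By direction alone, 35 members were above 0 in both fractions and 33 below, or 46.1% and 43.4%, against 41.8% and 36.5% of all analysed genes. This near-even split also depends on the scaling. With that centring the median dox difference in Sca1+ cells was -0.18 for members and -0.16 for all genes. The dox differences of the fractions, which share no array, correlated across the 76 members with Pearson r = 0.85 and Spearman rho = 0.87. Across all 12264 genes the values were 0.85 and 0.79. Genes are not independent replicates, both fractions of a treatment may derive from 1 culture, and all members were read on the same 4 arrays. Both dox arrays lay above both untreated arrays for 27 members (35.5%, against 35.2% of all genes) and below them for 24 (31.6%, against 29.1%). The counts by sign and by array pair rest on the deposited scaling and were not repeated with another. An additive limma fit over all 12264 genes, which takes the fractions of a treatment as separate samples, was run as an alternative. At a Benjamini-Hochberg adjusted p under 0.05 for dox it called Mrpl36 higher (1 of 76 members, against 11.9% of all genes) and Mrps2, Mrpl4 and Mrpl38 lower (3 of 76, against 14.8%).

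**Figure D2:**
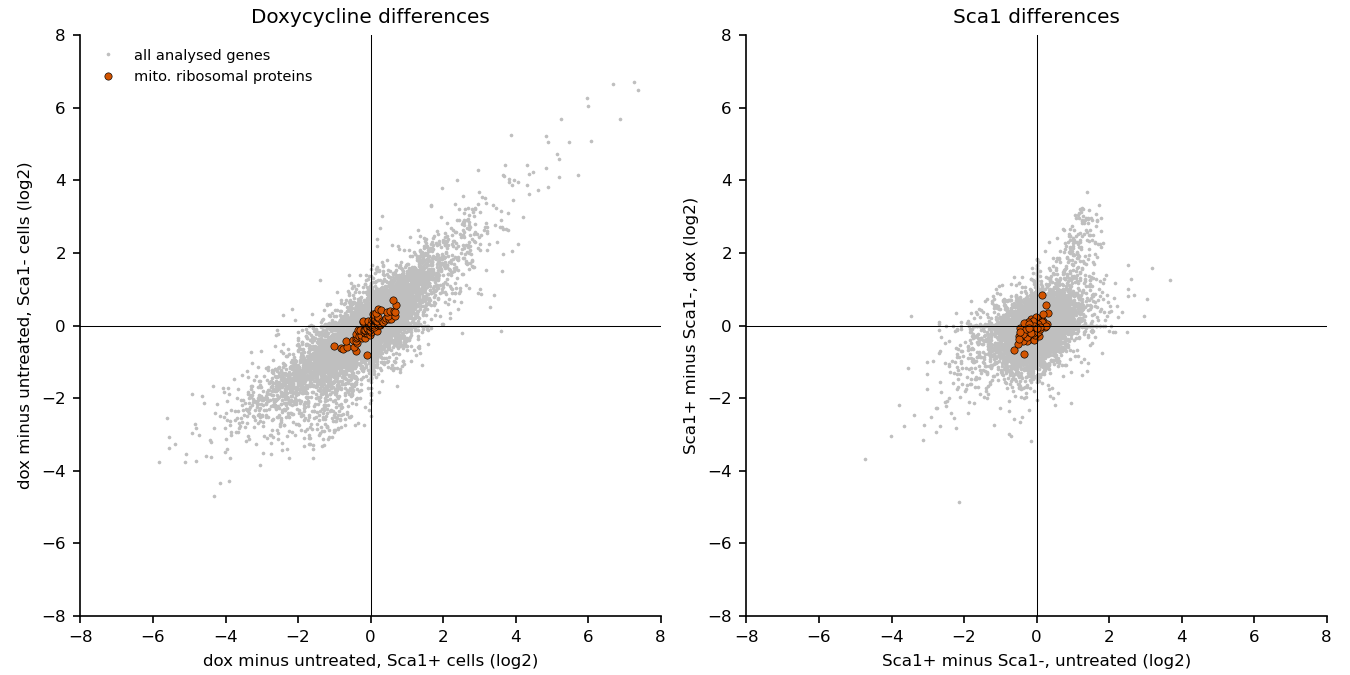
Left, dox minus untreated log2 difference in Sca1+ (x) and Sca1- cells (y); right, Sca1+ minus Sca1- log2 difference without (x) and with dox (y). Grey points are the 12264 analysed genes and orange points the 76 members, which sit near the centre of each cloud and lie within -1.01 and 0.70 of 0 for dox in Sca1+ cells.

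Among large-subunit proteins with lower levels under dox, Mrpl4, a counterpart of the bacterial protein that lines the exit tunnel for the growing chain, read 8.22 and 8.39 in Sca1+ and Sca1- cells without dox and 7.40 and 7.78 with dox. Both dox arrays lay below both untreated arrays, at 1.76-fold and 1.53-fold lower in Sca1+ and Sca1- cells. Mrpl28, also with a bacterial counterpart, read 8.86 and 8.68 without dox and 8.21 and 8.08 with it, 1.56-fold and 1.51-fold lower. Another probe set gave -0.87 and -0.58, and the dimmest -0.06 and -0.38, so the size of the Mrpl28 difference depended on the probe set. Mrpl13 read 10.71, 10.44, 10.31 and 9.74, a difference of -0.40 in Sca1+ and -0.70 in Sca1- cells. The next brightest Mrpl13 probe set gave -0.33 and -0.38, and a dimmer one 0.21 and -0.26, so its direction in Sca1+ cells depended on the probe set.

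Mrpl38, a mitochondria-specific protein of the large subunit, had the lowest mean dox difference of the family. It read 7.29 in untreated Sca1+ and 7.63 in untreated Sca1- cells, and 6.27 and 7.06 with dox. The dox Sca1+ array stood lowest, 2.02-fold below untreated Sca1+ cells, and the Sca1- difference was 1.49-fold. The other Mrpl38 probe sets did not all share this direction. The second brightest gave 0.05 and 0.88. The dimmest gave -0.87 and -0.58, but it read only 3.88 on the dox Sca1+ array, near the floor. The direction of Mrpl38 therefore depended on the probe set.

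Among small-subunit proteins, Mrps2, with a bacterial counterpart, read 7.96 and 8.11 in untreated Sca1+ and Sca1- cells and 7.20 and 7.47 with dox, 1.70-fold and 1.56-fold lower. The array pairs did not overlap. Mrps23, which occurs only in mitochondria, read 7.67, 7.44, 6.99 and 7.02, a difference of -0.68 and -0.43, and its other probe sets were also below 0 in each fraction (-0.50 and -0.36, and -0.33 and -0.60). Mrps12, a protein of the decoding centre, where codon and tRNA are matched, was picked after its values were seen and had dox differences of -0.26 and -0.26.

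On the higher side, Mrpl36, a small large-subunit protein with a bacterial counterpart, read 8.19 and 8.18 in untreated Sca1+ and Sca1- cells and 8.82 and 8.87 with dox, 1.54-fold and 1.62-fold higher. The fractions were nearly alike within each treatment. Mrps16, a small-subunit protein whose loss causes a mitochondrial disease in people, read 8.93, 9.14, 9.64 and 9.71. It was 1.63-fold higher in Sca1+ cells and 1.49-fold in Sca1- cells, just under the 1.5-fold rule in the latter. Mrpl17, of the large subunit, read 9.29, 9.49, 9.94 and 9.89, differences of 0.65 and 0.40.

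Mrps18b is one of 3 mammalian forms related to a single bacterial small-subunit protein. It read 7.52, 7.99, 8.20 and 8.37, with dox differences of 0.67 and 0.39. The forms differed in size: Mrps18a had 0.21 and 0.01 and Mrps18c 0.09 and 0.01. These relatives were added after their values were seen. Mrps21 read 9.09, 9.58, 9.62 and 9.98, differences of 0.53 and 0.41, and Mrps33, a mitochondria-specific protein, 8.03, 8.39, 8.71 and 8.64, differences of 0.67 and 0.26. For Mrps21 the dox Sca1+ array stood only just above the untreated Sca1- array.

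**Figure D3:**
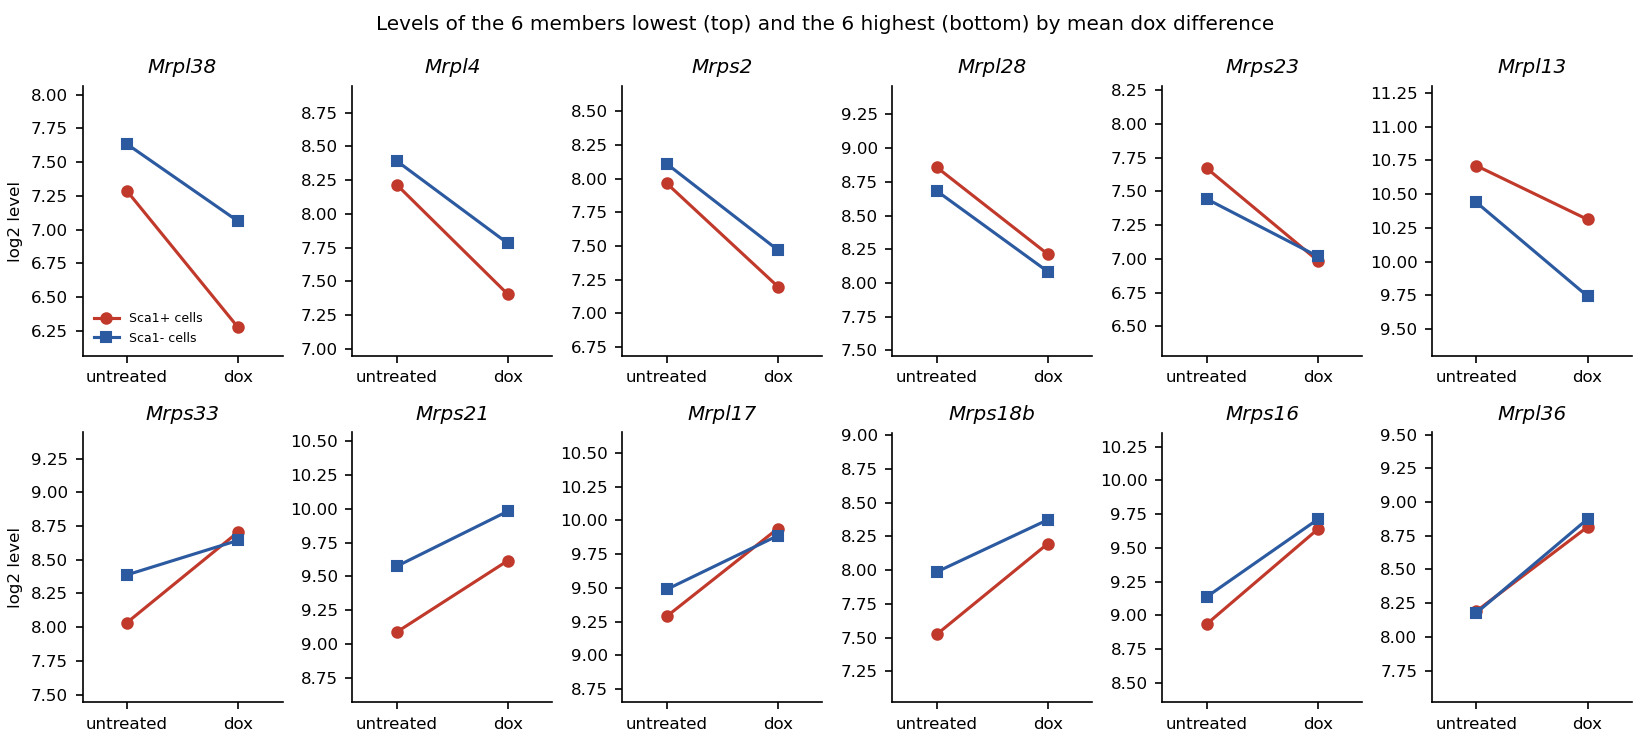
Log2 level of the 6 genes with the lowest (top row) and the 6 with the highest (bottom row) mean dox difference, untreated and with dox, in Sca1+ (circles) and Sca1- cells (squares); each point is 1 array and each panel spans 2 log2 units. Lines fall in every top panel and climb in every bottom panel, from 7.29 to 6.27 for Mrpl38 in Sca1+ cells and from 8.18 to 8.87 for Mrpl36 in Sca1- cells.

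Higher and lower members were found in each structural class. The 47 large-subunit members had a median dox difference of 0.01 in Sca1+ and 0.01 in Sca1- cells, with 23 above 0 and 19 below 0 in both fractions. The 26 small-subunit members had medians of -0.03 and -0.03, with 11 above and 12 below. Of 28 large-subunit members with a bacterial counterpart, 13 were above and 11 below 0 in both fractions. Of 19 large-subunit members found only in mitochondria, 10 were above and 8 below. The small subunit had 9 above and 7 below among 17 with a bacterial counterpart, and 2 above and 5 below among 9 found only in mitochondria. The remaining 3 genes were not placed in a class. Over all analysed genes the shares were 41.8% above and 36.5% below, as given earlier. Like the counts by sign over all members, those of each class rest on the deposited scaling.

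Proteins of the large-subunit stalk that contacts translation factors were mixed in sign. All genes given here were also chosen after their values were seen. Mrpl12 read 11.26 and 11.35 without dox and 11.24 and 11.09 with it (Sca1+ and Sca1-), and Mrpl10 had dox differences of -0.08 and -0.06. Mrpl11 had 0.56 and 0.19, and its second bright probe set had a mean dox difference of 0.10. Mrpl58, a hydrolase that frees stalled chains and is built into the large subunit, had -0.41 and -0.42, and Mrpl45, which helps hold the ribosome to the inner membrane, 0.16 and 0.33.

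The dox differences of the fractions separated most for Mrpl33 (0.70 log2 units, Sca1+ minus Sca1-), a small large-subunit protein. It read 10.60 and 10.46 without dox, 10.50 in Sca1+ cells with dox and 9.66 in Sca1- cells with dox. The dox Sca1- array alone was low, a 1.74-fold difference within Sca1- cells against -0.10 on the log2 scale in Sca1+ cells. Mrps33 and Mrpl11 followed, at 0.42 and 0.38. For Mrpl11 this depended on the probe set, since the other bright one gave -0.07. In the other direction stood Mrpl38 (-0.44), Mrpl34 (-0.35) and Mrps27 (-0.31), a protein with RNA-binding repeats. Mrpl34 read 8.87, 8.82, 8.66 and 8.96, and Mrps27 5.92, 6.0, 5.72 and 6.11. A dim second probe set of Mrpl34 gave 0.53, opposite in sign. Over the 76 members this difference had an SD of 0.19, compared with 0.53 over all analysed genes; it holds array noise as well as any true difference between the fractions.

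Between the sorted fractions the members differed little. The median Sca1+ minus Sca1- difference was -0.09 without dox and -0.05 with dox, against -0.01 and -0.03 over all analysed genes. Both times below 0 were 38 members (50.0%, against 34.6% of all genes), and 15 were above 0 both times (19.7%, against 24.4%). The sign without dox depended on the scaling. With arrays centred on their median over all probe sets, the untreated median was 0.14 for members and 0.21 for all analysed genes. No member was 2-fold different in either comparison. Over all genes 3.07% were 2-fold higher and 3.33% lower in Sca1+ cells without dox, 2.52% and 2.98% with dox, and 1.08% and 0.881% both times. At 1.5-fold, 0 members were higher and 1 lower without dox, against 8.47% and 9.02% of all genes, and 1 was higher (Mrpl33) and 2 lower (Mrpl38 and Mrpl41) with dox, against 6.89% and 8.99%. Mrpl41 was lower both times, where 2.83% of all genes were, and no member was higher both times, where 2.92% were. The untreated differences share the untreated arrays with the dox differences above, so the accounts are not independent of each other.

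Mrpl41, a mitochondria-specific large-subunit protein, read 8.75 in untreated Sca1+ and 9.36 in untreated Sca1- cells, and 8.43 and 9.09 with dox. Both Sca1- arrays stood above both Sca1+ arrays, by 1.54-fold and 1.58-fold. Mrpl37, likewise mitochondria-specific, read 6.35 and 6.86 without dox and 6.35 and 6.86 with dox, so its Sca1 difference of -0.51 recurred while its dox difference was 0.00 in each fraction. Mrpl38 had Sca1 differences of -0.35 and -0.79 and Mrps21 of -0.49 and -0.37. The second brightest Mrpl38 probe set gave 0.19 and -0.64, and the dimmest -0.57 and -0.86. The direction of Mrpl38 without dox therefore depended on the probe set. On the higher side in Sca1+ cells were Mrpl33 (0.14 and 0.84), Mrpl13 (0.27 and 0.57), Mrpl49 (0.33 and 0.33) and Mrps25 (0.18 and 0.33). Mrpl49 read 7.81 and 7.48 without dox and 7.64 and 7.31 with dox, and Mrps25 8.94 and 8.76, and 9.04 and 8.71. Another Mrps25 probe set gave Sca1 differences of 0.21 and 0.54, and the dimmest, near the floor, 0.29 and -0.45. Across the 76 members the Sca1 differences without and with dox, which share no array, correlated with r = 0.65 and rho = 0.64, against 0.47 and 0.38 across all analysed genes.

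Genes with more than 1 probe set give a measure of technical spread on the same RNA, although it is not a replicate of the culture. Members were covered by 156 probe sets, 13 of them at the floor on all arrays, and 42 genes had 2 or more. In 19 genes at least 2 probe sets had a mean log2 level equal to a linear level of 100 or more. Their mean dox differences spanned a median of 0.12 log2 units within a gene and had the same sign in 16 of 19. The exceptions were Mrpl15, Mrps9 and Mrpl50. The brighter Mrpl50 probe set gave 0.29 and 0.42 and the other -0.41 and -0.26, the widest span at 0.69, and no direction is given for this gene. Mrpl1 was similar by probe sets under a level of 100, at 0.52 and 0.17 against -0.31 and -0.34. Over all probe sets Mrpl38 and Mrpl17 spanned more than 1 log2 unit; for Mrpl17 the others lay close to the floor, with 1.28 and 0.66 for one and 0.06 and -0.33 for another. Mean Sca1 differences spanned a median of 0.10. Many member differences given here are of the size of this span.

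**Figure D4:**
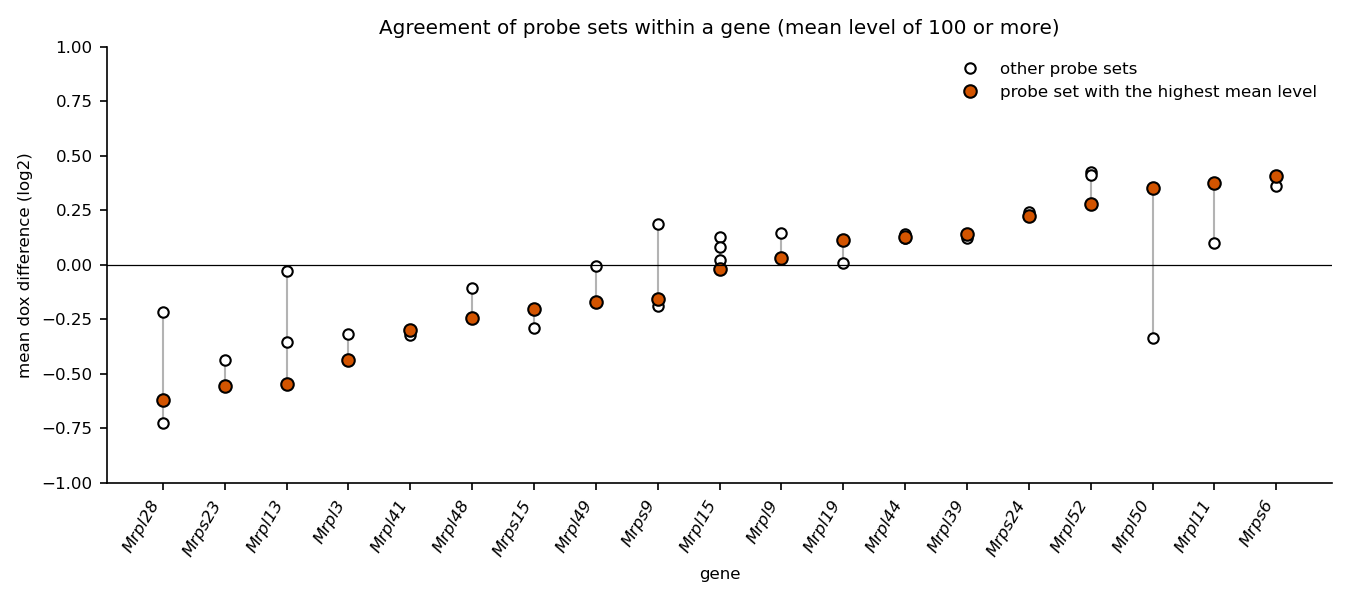
Mean dox difference (log2) of every probe set with a mean level of 100 or more, for the 19 members that have at least 2 of them; filled points are the probe set used for the gene and open points the others. Most genes cluster within a median span of 0.12, and Mrpl50 spans 0.69 across 0.

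The rest of the mitochondrial translation system is given by lists set apart from the members. Mitoribosomal proteins with other symbols showed medians of 0.01 and 0.06 over 4 genes; Dap3, a GTP-binding protein of the small subunit, was at 0.55 and 0.57. Of 13 translation factors, 8 were above and 4 below 0 in both fractions and none was 1.5-fold different in both, with medians of 0.09 and 0.11. The assembly factors had medians of 0.10 and 0.17, and 1 of 20, Mtg1, a GTPase, was at least 1.5-fold higher in both fractions (1.17 and 0.74). Mitochondrial aminoacyl-tRNA synthetases, which charge the tRNAs, had medians of 0.10 and 0.05, and 2 of 16 were 1.5-fold higher in both, Wars2 (0.95 and 1.06) and Sars2 (0.73 and 0.83). No gene of these 4 lists was 1.5-fold lower in both fractions. Over all analysed genes 11.8% were higher and 15.0% lower by this rule. For mitochondrial DNA copying and transcription the medians were -0.16 and -0.10 over 10 genes, and the exonuclease gene Mgme1 was at least 2-fold lower in both (-1.14 and -1.30). Regulators of nuclear genes for mitochondria had medians of -0.10 and -0.35 over 9 genes, none 1.5-fold different in both fractions; Gabpb1, a GABP subunit, was at -0.98 and -0.51 and Yy1 at 0.48 and 0.28.

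The nearest families in function and number differed between the fractions. Cytosolic ribosomal proteins had median dox differences of 0.25 in Sca1+ and -0.02 in Sca1- cells over 46 genes, and respiratory-chain subunits of nuclear genes 0.23 and -0.03 over 76 genes. Members had 0.01 and -0.0035. Without dox, the Sca1+ minus Sca1- medians of these families were -0.18 and -0.19, against -0.09 for the members, and with dox 0.08 and 0.03. No test of these differences is possible with 1 array per group. The median of all probe sets was 3.48 on the untreated Sca1+ array and between 3.67 and 3.70 on the others, and centring on it shifts the dox difference in Sca1+ cells by -0.19 for every gene.

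Stress and growth lists lay further from 0 than the members. Genes of the integrated stress response, which cells use when translation or mitochondria are disturbed, had medians of -1.09 and -0.75 over 11 genes, and 7 of 11 passed 1.5-fold downwards in Sca1+ and Sca1- cells alike, against 15.0% of all genes. Psat1 was at -2.70 and -2.59, Trib3 at -2.57 and -1.56, Sesn2 at -2.08 and -1.99, Chac1 at -2.27 and -1.47, and Fgf21 did not pass the filter. Mitochondrial chaperones and proteases had medians of -0.19 and -0.14, and 1 of 10, the protease gene Lonp1, was 1.5-fold lower in both (-0.91 and -0.94). Genes of dividing cells had medians of -0.99 in Sca1+ and -2.81 in Sca1- cells over 9 genes, with Mki67 at -2.56 and -3.12; their part in the members' differences was not tested. In sorted bulk cells fewer cells with a transcript and less of it per cell cannot be told apart.

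**Figure D5:**
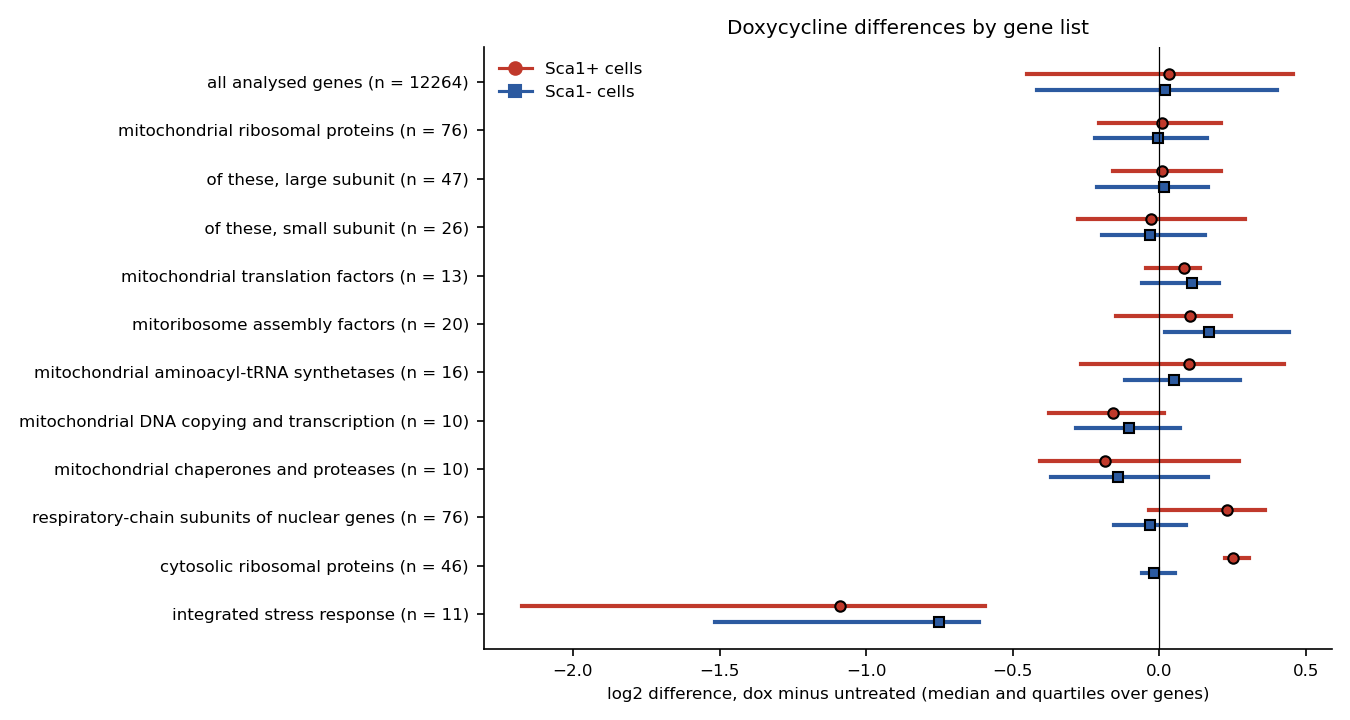
Median (point) and quartiles (line) over genes of the log2 dox minus untreated difference for each list, in Sca1+ (circles) and Sca1- cells (squares). The members lie at 0.01 and -0.0035 with quartiles inside those of all analysed genes, while the integrated stress response lies at -1.09 and -0.75.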

How the data were processed

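Per the labels' protocols, total RNA of the sorted cells was turned into biotinylated cRNA with Affymetrix 3' IVT reagents, so signal comes from transcript 3' ends. The authors deposited log2 levels for 45101 probe sets on 4 arrays; the sources used here do not state how these were summarized and scaled or with which software, and values under a linear 10 had been set to 10. The platform annotation names 1 gene for 34958 probe sets and several for 932, and gives no symbol here for 9211. Differences of deposited log2 levels were taken between arrays, with no test at 1 array per group, and genes were counted at 2-fold and 1.5-fold. The members and lists were chosen with earlier results of these data known. Named genes were those 2-fold different in any comparison, the 6 lowest and 6 highest by mean dox difference, the 4 by Sca1 difference, the 3 by difference of the dox effects, and those with probe sets over 1 log2 unit apart. Of the other lists, up to 4 genes at least 2-fold different in both fractions qualified; others named from them, such as Dap3, Gabpb1 and Yy1, were picked after their values were seen. An additive limma 3.58.1 fit (dox and Sca1, all 12264 genes, Benjamini-Hochberg adjustment) was an alternative. It was tried on simulated data with noise drawn independently for each array. That trial does not cover fractions of a treatment that share a culture, so it gives no check on the adjusted p-values. Python 3.11.15, pandas 2.3.3 and R 4.3.3 were used.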

Additional observations from a re-analysis of the deposited data

Results flagged for a closer look

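Over all 76 members, 8 had dox differences of opposite sign in the fractions and 23 had Sca1 differences of opposite sign without and with dox. Those among the members named by the fixed rule are given here. With 1 array per group none of these differences was tested. Outside the rule, Mrpl21 had dox differences of 0.17 in Sca1+ and -0.15 in Sca1- cells, picked after its values were seen. The members' median dox difference was above 0 in Sca1+ and below 0 in Sca1- cells, 0.014 apart. These signs depended on the processing. Averaging a gene's probe sets gave -0.008 in Sca1+ and -0.03 in Sca1- cells. Centring on genes of 100 or more gave 0.08 and 0.007, and centring on all probe sets -0.18 and 0.03. The dox difference was below 0 in Sca1+ and above 0 in Sca1- cells for Mrpl34 (Sca1+ minus Sca1-, -0.35) and Mrps27 (-0.31), and the reverse for Mrps25 (0.15). The Sca1 difference was below 0 without dox and above 0 with dox for Mrpl17 (untreated minus dox, -0.25) and Mrps33 (-0.42), and the reverse for Mrpl34 (0.35), Mrps23 (0.26) and Mrpl36 (0.071). Only Mrps27 and Mrps33 kept their signs under every alternative of scaling and probe sets. For the Sca1 difference without dox, Mrpl17 reached 0.02, Mrpl34 -0.10 and Mrpl36 -0.01. With dox, Mrps23 reached 0.04. The Mrps25 dox difference in Sca1+ cells reached -0.09.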

How the results depend on the processing

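Over 7 alternatives and 16 results, 78 of 100 values stayed within the limits set (0.1 log2 units for a median, 1.5 times for a count). A further 2 filters remove no member and could change nothing. Among the 7, the filter on a highest array of 100 or more left 74 members and could change little. The limma counts by adjusted p were set against counts by 1.5-fold, so an equal count need not hold the same genes. The lower members include Mrpl38 by limma and Mrpl28 by 1.5-fold. No paired analysis of replicates was possible because each group has 1 array and no replicate numbers are shared. The additive limma fit estimates 1 dox effect common to both fractions, with the fraction as a second term. Its error rests on how far the dox differences of the fractions disagree, and not on replicate cultures. Setting every array's median over its probe sets, a value near the floor, to be equal moved the median dox difference in Sca1+ cells to -0.18 and the untreated Sca1 median to 0.14, while those of all analysed genes moved to -0.16 and 0.21; 0 members were then 1.5-fold higher and 10 lower with dox in Sca1+ cells, 2 higher and 3 lower in Sca1- cells, 0 higher in both fractions, and 0 lower in untreated or in both comparisons of Sca1+ cells. Centring on genes of 100 or more gave 8 higher with dox in Sca1+ cells and 2 higher in Sca1+ than Sca1- cells with dox. Averaging a gene's probe sets left 2 lower with dox in Sca1+, 1 in Sca1- and 1 in both fractions, and 1 lower in Sca1+ cells with dox and 0 both times. Probe sets without an _x_at, _s_at or _a_at ending gave 3 higher with dox in Sca1- cells, 2 in both fractions, 2 higher in Sca1+ cells with dox, and 0 lower in untreated Sca1+ cells or both times. In the additive limma fit, which takes the fractions of a treatment as separate samples, 4 members passed an adjusted p of 0.05 for dox: Mrps2 (adjusted p = 0.041), Mrpl4 (0.043) and Mrpl38 (0.046) lower and Mrpl36 (0.047) higher, against 14.8% and 11.9% of all genes; Mrpl28 had 0.053. For Sca1, 0 members passed, as did 0 of all genes by limma; at an unadjusted p under 0.05 it had 3 members lower and 0 higher. Averaging takes in probe sets at the floor on all arrays, 13 among the members, whose differences are 0. What else contributed to these shifts was not tested.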

Other observations

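A few nuclear genes of the respiratory chain differed more with dox than most of that list, whose middle 50% spanned 0.39 in Sca1+ and 0.24 in Sca1- cells. Cox8a, a subunit of cytochrome c oxidase, read 10.38 and 10.49 in untreated Sca1+ and Sca1- cells and 9.25 and 9.27 with dox, more than 2-fold lower in each fraction. Ndufb1, a complex I subunit, read 5.24 and 4.71 without dox and 5.99 and 6.89 with dox, differences of 0.75 and 2.19 on the log2 scale. Of 76 subunits analysed, Cox8a alone passed 2-fold downwards in both Sca1+ and Sca1- cells, and 0 passed it upwards, against 8.56% and 5.29% of all analysed genes. Among cytosolic ribosomal proteins, Rps27 was higher by 0.90 and 0.83. These genes were picked after their values were seen.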
